A study of Orestias ascotanensis with 42 samples.

Results

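Skeletal muscle of the Andean killifish Orestias ascotanensis, netted in the Ascotán salt pan, was compared between summer and winter. It used the 14 muscle libraries of the 42 libraries in the series, chosen by the season and tissue in their titles and column names: 7 from fish netted in the southern summer of 2020 and 7 from fish netted in the southern winter of 2019. All fish were wild and came from 3740 m above sea level, and each gave 1 muscle library of poly-A RNA, sequenced without strand as read pairs of 150 bp. No treatment was given, and the labels state neither sex, age nor size. Each season was sampled in 1 year only, so season, year and collection cannot be told apart. The other 28 libraries are gills and skin of the same 14 fish.

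Fish trunk muscle is mostly fast-contracting white muscle, with smaller amounts of slow red muscle. A few contractile and calcium-handling proteins and enzymes of energy metabolism take up much of its messenger RNA. In other fishes, muscle is known to change the makeup of its contractile and metabolic gene products with temperature and season. The deposited table gives genes by identifiers without names or positions, so neither the muscle label nor any pathway could be checked against marker genes. Genes are therefore described by their level, by the tissue in which they are most abundant, and by their values in each fish.

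The muscle libraries held between 6074371 counts (summer 4) and 154396513 counts (summer 5). The lowest total after summer 4 was 28009075, in summer 6. Summer 4 had no count for 30.3% of the genes, against 6.62 to 13.5% in the other muscle libraries, and its median correlation with the other muscle libraries was 0.790, against 0.899 to 0.959 for the rest. The treatment tag of winter 4 gives summer while its title and column name give winter; the title was followed.

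The distance between a pair of libraries was taken as the median absolute deviation (MAD) of the log2 count ratio over genes whose counts in both libraries sum to at least 1000. Summer 3, 5, 6 and 7 lay very close together, at MADs of 0.0605 to 0.0924 in their 6 pairs. The 9 other pairs among summer fish that leave out summer 4 had MADs of 0.279 to 0.336. Among genes with sums of 20 to 160, the squared scatter of the 4 close libraries was 1.21 to 1.60 times sampling noise, against at least 2.19 times in every other pair of muscle libraries. The 4 libraries thus differed by more than sampling noise, which was taken with doubled variance. Repeat libraries of 1 fish can also differ by more than sampling noise, so this scatter does not show that they are separate fish. They were kept as separate samples because their titles name separate fish. The number of called genes is also given with them averaged and treated as correlated. The winter libraries fell into a pair of clusters, seen in these distances and named by no label. Winter 1, 4 and 5 had MADs of 0.185 to 0.312 among themselves, and winter 2, 3, 6 and 7 of 0.209 to 0.435, while the 12 pairs between these clusters ran from 0.438 to 0.682. Pairs of a summer and a winter library, summer 4 aside, had MADs of 0.281 to 0.520, so some winter fish differed more from each other than from the summer fish. The library nearest to winter 4 was winter 1, at 0.185; its median distance was 0.396 to summer libraries and 0.530 to winter libraries. For winter 1 these medians were 0.395 and 0.525.

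**Figure D1:**
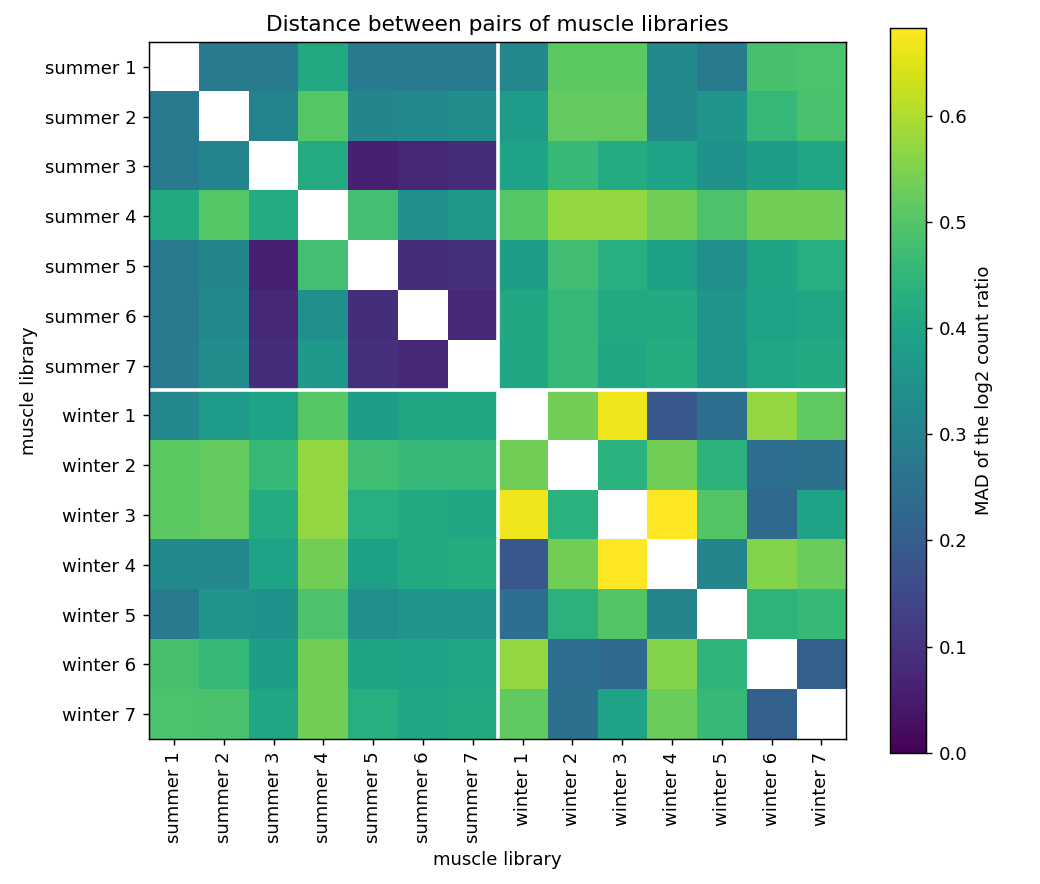
Distance between each pair of the 14 muscle libraries, as the MAD of the log2 count ratio; rows and columns are libraries, summer before winter, and darker cells are closer pairs. Summer 3, 5, 6 and 7 form a dark block at 0.0605 to 0.0924, summer 4 has no pair under 0.343, and winter 1, 4 and 5 stand apart from winter 2, 3, 6 and 7.

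The first question was how many muscle genes differed between the seasons, and at which levels. Of 17181 genes that passed a filter on low counts, 1100 (6.4%) passed the quasi-likelihood test of edgeR over the 14 libraries, with adjusted p under 0.05. Of these, 406 (2.36%) rose in summer and 694 (4.04%) fell. The called changes were mostly moderate. Their median log2 fold change was 0.97 among risers and -0.92 among fallers, and 143 of the 1100 called genes changed at least 4-fold. Levels are given as CPM, the counts of a gene scaled to a common library size with TMM factors. The share of genes called was highest at a log2 CPM of 5 to 8. It was 11.4% of the 1800 genes in that class, where 61 rose and 145 fell. It was 7.97% of the 7796 genes at 2 to 5, where 238 rose and 383 fell. At 0 to 2, 3.89% of 4393 genes were called, with 84 rising and 87 falling. Under 0, 15 of 2906 genes rose and 68 fell. Of the 286 most abundant genes, at 8 and over, 8 rose and 11 fell; these 286 genes took on average 75.5% of the counts of summer libraries and 75.8% of those of winter libraries. Among called genes alone, the sizes were largest at the lowest level. Their median absolute log2 fold change was 2.38 in the lowest class and 0.828 at 5 to 8. Sizes were not compared over all genes of a class, so this order does not show that scarce genes changed more.

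**Figure D2:**
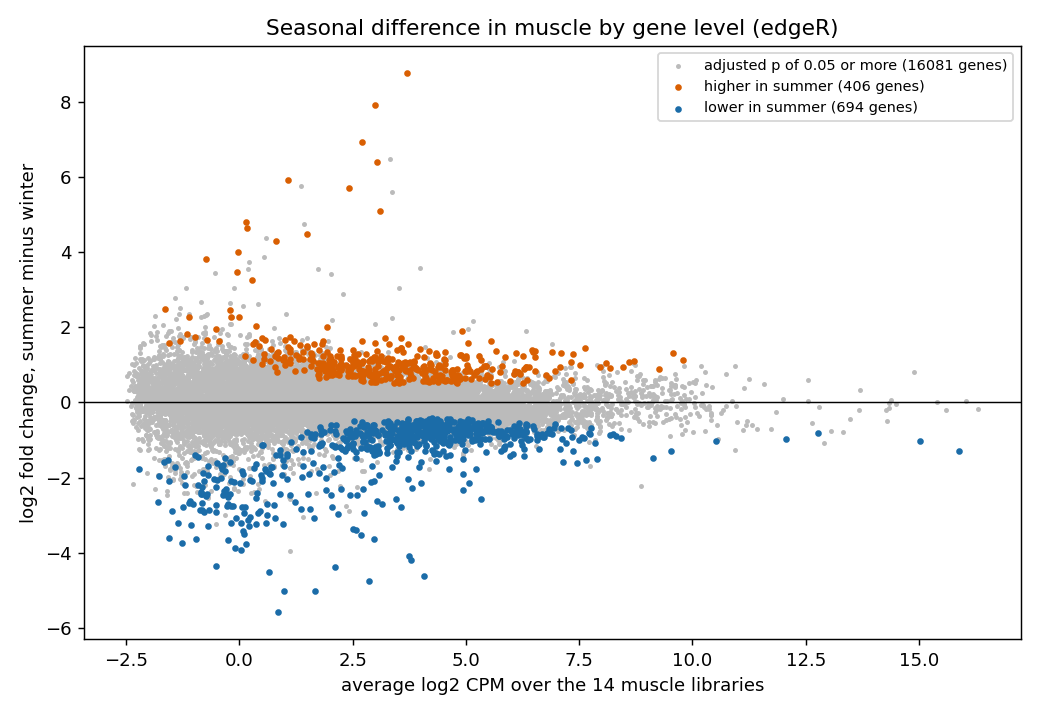
Log2 fold change between summer and winter muscle (vertical) against the average log2 CPM of each gene (horizontal), with the 406 risers in orange, the 694 fallers in blue and the other genes tested in grey. Called genes lie mostly at intermediate levels with moderate changes, and the largest changes belong to genes with an average log2 CPM under 5.

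The number of calls depended on which libraries were in the fit. Leaving out summer 4, the shallow library, gave 1523 genes (8.77%; 562 up and 961 down), of which 991 were among the 1100. Leaving out any 1 of the close libraries lowered the count to 453 without summer 3 (2.62%), 448 without summer 5 (2.59%), 447 without summer 6 (2.58%) and 430 without summer 7 (2.48%). The count was 472 without winter 2 (2.73%), 457 without winter 6 (2.63%) and 644 without winter 7 (3.7%). Leaving out summer 1 or summer 2 called 4.79% and 6.33% of the genes tested. For winter 1, winter 3, winter 4 and winter 5 the shares were 7.98%, 6.79%, 8.67% and 6.16%. In all, 375 genes (2.18% of those tested) passed with all 14 libraries and in each of the 14 fits that left out 1 of them; 133 of them rose and 242 fell. Averaging summer 3, 5, 6 and 7 into 1 sample left 0 genes called by edgeR. In that fit 2759 genes were under 0.05 before adjustment, and 884 is 5% of the genes tested; the smallest adjusted p was 0.147. Without summer 4 as well, edgeR again called 0 genes, with 2172 at an unadjusted p under 0.05. Summer 1, 2 and 4 alone against the 7 winter libraries also gave 0 genes in edgeR, with 2581 under 0.05. These fits have 4 or 3 summer samples in place of 7. Other scalings and tools on the 14 libraries called 6.53% (RLE factors), 2.58% (total counts), 13.4% (DESeq2), 5.35% (low counts kept), 6.65% (limma voom), 29.8% (limma voom with quality weights) and 6.54% (edgeR without robust estimation) of the genes. The share was 4.2% with the fish number as a block, 7.07% with the season tag of winter 4 followed, and 15% in 1 fit of all 42 libraries. A fit that keeps all 14 libraries but treats the 4 close ones as correlated (limma voom with a random block, chosen after seeing the data) estimated a correlation of 0.926 among them. It called 70 genes (0.407%), 18 higher and 52 lower in summer, of which 64 were among the 1100 and 59 among the 375.

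**Figure D3:**
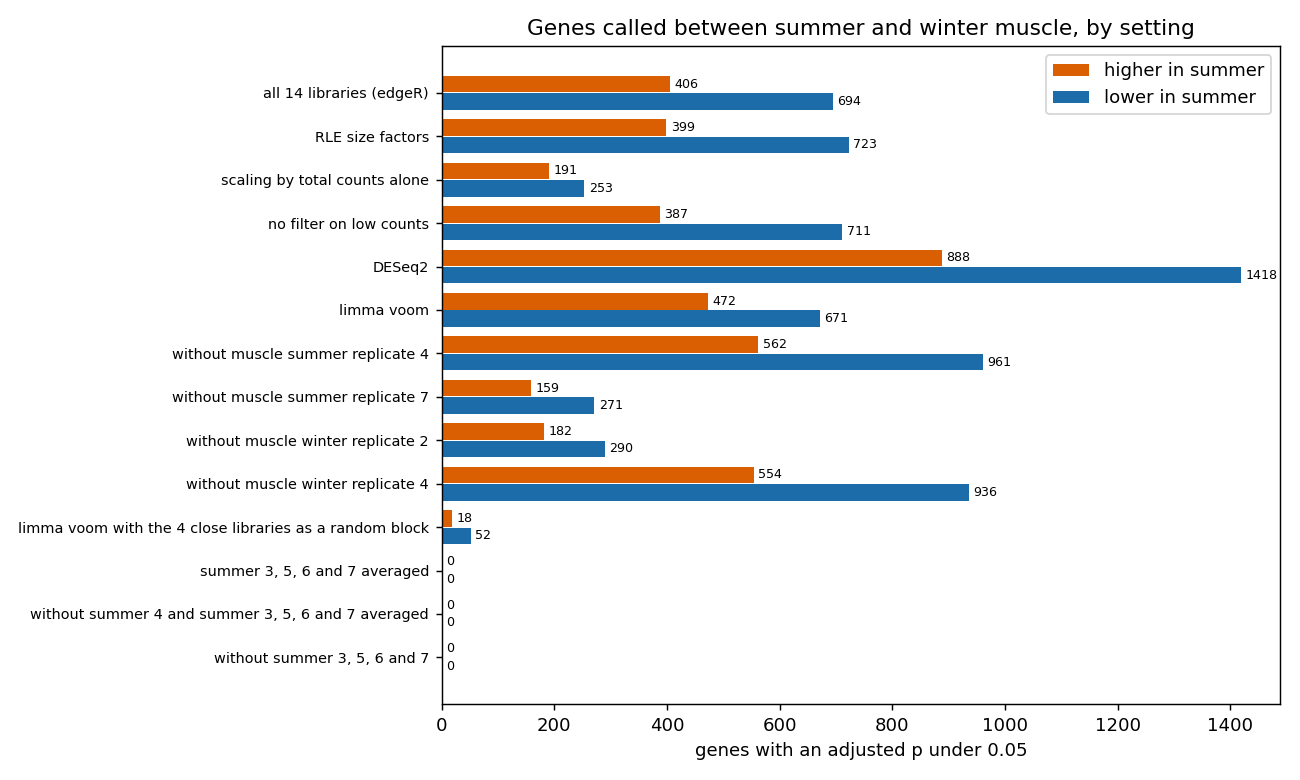
Number of genes with an adjusted p under 0.05 (horizontal), higher (orange) and lower (blue) in summer, for all 14 libraries and for other settings (rows). The count is 1100 with all libraries, 1523 without summer 4, 70 with the 4 close libraries as a random block and 0 when they are averaged or left out.

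Among the 10 most abundant genes of muscle, those at ranks 3, 6 and 7 differed between the seasons in their share of a library's counts. Summer minus winter, the differences were -4.02, -1.95 and 1.99 percentage points. The 10 genes with the highest mean CPM, ranked by counts and not corrected for gene length, all belonged to the genes at least 4-fold higher in muscle than in gills and skin. They are given by rank, without identifiers. The gene at rank 3 took 4.67, 4.09, 3.36, 3.71, 3.47, 3.27 and 3.16% of the counts in summer fish 1 to 7, against 7.15, 9.46, 5.60, 7.38, 6.07, 8.46 and 9.76% in winter fish 1 to 7. Every summer fish lay below every winter fish. Its share averaged 3.68% ± 0.538 in summer and 7.70% ± 1.60 in winter (SD, n = 7 each; exact permutation, two-sided, p = 0.000583, the smallest that 3432 splits allow; adjusted p = 0.00291 over the 10 genes). With the 4 close libraries averaged the difference was -3.75 percentage points (exact permutation, adjusted p = 0.0303). In edgeR it fell by 1.29 on the log2 scale (SE 0.29, adjusted p = 0.0174) and passed in all 14 fits without 1 library, with adjusted p up to 0.0456. It missed the threshold with the close libraries averaged (log2 fold change -1.20, adjusted p = 0.212) or as a random block (-1.16, adjusted p = 0.0943).

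The gene at rank 7 moved the other way. It took 2.91, 3.16, 4.21, 3.69, 3.50, 4.80 and 5.69% of the counts in summer fish 1 to 7, against 1.95, 1.39, 2.19, 2.28, 1.99, 1.94 and 2.29% in winter fish 1 to 7. Again no summer fish overlapped a winter fish. The means were 3.99% ± 0.981 in summer and 2.01% ± 0.311 in winter (SD, n = 7 each; exact permutation p = 0.000583, adjusted p = 0.00291), and with the close libraries averaged the difference was 1.57 percentage points (exact permutation, adjusted p = 0.0303). In TMM-scaled CPM, however, the groups overlapped, with a lowest summer value of 27323 and a highest winter value of 35768. Its log2 fold change in edgeR was 0.81 ± 0.28 (SE; adjusted p = 0.0884), and 0.99 when libraries were scaled by total counts alone (adjusted p = 0.00650). In DESeq2 it was 0.82 and passed (adjusted p = 0.0108). It missed the threshold with RLE factors in edgeR (adjusted p = 0.0794) and in limma voom (adjusted p = 0.0691). With the close libraries averaged the log2 fold change was 0.57 (edgeR, adjusted p = 0.430), and as a random block 0.72 (limma voom, adjusted p = 0.388). TMM factors ran from 0.976 to 1.23 in summer and from 0.641 to 1.34 in winter, where the libraries of winter 1, 4 and 5 had factors of 1.32 to 1.34 and those of winter 2, 3, 6 and 7 of 0.641 to 0.880.

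The gene at rank 6 took 2.30% ± 0.532 of the counts in summer and 4.25% ± 0.936 in winter (SD, n = 7 each; exact permutation p = 0.00175, adjusted p = 0.00583). Its highest summer share, 3.30% in summer 1, lay above its lowest winter share, 2.68% in winter 3. In edgeR it fell by 1.02 on the log2 scale (SE 0.25, adjusted p = 0.0251), and the adjusted p reached 0.0611 when 1 library was left out. With the close libraries averaged the difference in share was -1.73 percentage points and missed the threshold (exact permutation, adjusted p = 0.0530). Together, the genes at ranks 3 and 6 took 5.04 to 7.97% of the counts of each summer fish and 8.27 to 14.3% of each winter fish. The other 7 of the 10 genes did not pass in share or in edgeR with all 14 libraries. The most abundant gene took 7.78% ± 2.33 in summer and 7.70% ± 1.35 in winter (exact permutation p = 0.939), with the highest single value, 12.4%, in summer 2. The gene at rank 2 took 7.15% ± 2.03 in summer and 5.87% ± 0.845 in winter (exact permutation, adjusted p = 0.221), and the gene at rank 5 took 4.49% ± 0.771 in summer and 3.97% ± 0.303 in winter (exact permutation, adjusted p = 0.221). Without summer 4, which held its lowest summer share at 3.00%, the gene at rank 5 passed with a difference of 0.764 percentage points (exact permutation, adjusted p = 0.0131). With the close libraries averaged its difference was 0.215 percentage points (exact permutation, adjusted p = 0.701), and that of the gene at rank 2 was 2.24, against 1.27 with all libraries, without passing (exact permutation, adjusted p = 0.0530).

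**Figure D4:**
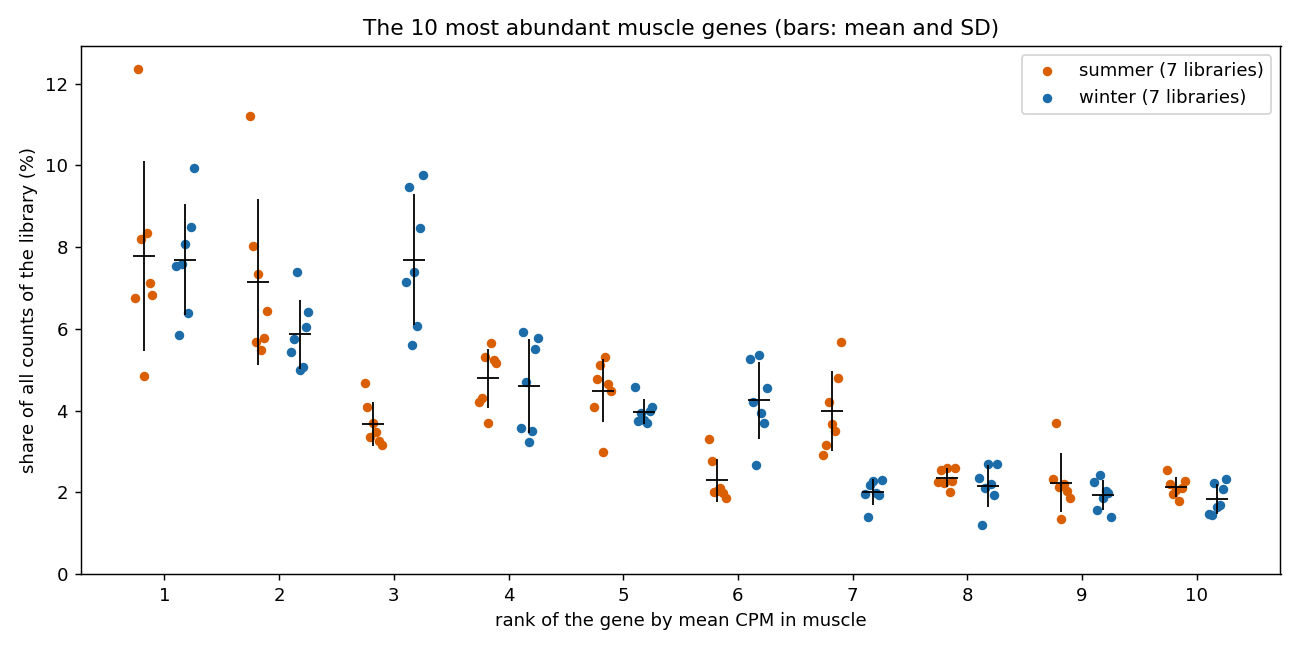
Share of all counts of a library (vertical, percent) taken by each of the 10 most abundant muscle genes (horizontal, by rank), with 1 point per fish, summer in orange left of winter in blue, and black marks for mean and SD over 7 fish. The seasons do not overlap at rank 3, where summer is lower, and at rank 7, where summer is higher.

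Among well-expressed genes, the clearest differences were sought with a rule that took genes averaging a log2 CPM of 5 or more, an adjusted p under 0.05 with all libraries and in each fit without 1 library, and no overlap between the seasons. Without regard to the call, 143 genes (0.832%) lay wholly above winter in summer and 239 (1.39%) wholly below, or 2.22% together. The rule was met by 12 risers and 44 fallers. The 12 risers had log2 fold changes of 0.61 to 1.58 with a median of 1.02, and 6 of them rose at least 2-fold. The 44 fallers ranged from 0.71 to 2.57 in absolute log2 fold change with a median of 0.92, and 15 of them fell at least 2-fold. Their adjusted p ran from 0.00438 to 0.0196 in risers and from 0.00508 to 0.0207 in fallers. With the close libraries as a random block, 5 of the 12 risers and 21 of the 44 fallers passed. In that fit 4.43% of all 406 risers, 6.63% of all 694 fallers and 0.407% of all genes tested passed. The rule chose its genes on these same libraries, which favours a pass, so nothing is read from these counts. Of the 12 risers 1 was muscle-enriched, and of the 44 fallers 4, beside 938 of the 17181 genes tested. None was gill- or skin-enriched, beside 445 and 130 of the genes tested. Genes of these last classes are at least 4-fold lower in muscle, and the rule kept only well-expressed genes. Their absence is therefore not read as a result. The gene at rank 3 above was among the 44.

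The largest riser under this rule was OAV3G000017035, a muscle-enriched gene. It had 27.8, 50.0, 50.3, 62.4, 40.1, 51.0 and 65.4 CPM in summer fish 1 to 7, against 17.7, 14.2, 16.7, 10.8, 19.2, 16.4 and 21.3 CPM in winter fish 1 to 7. The rule required no overlap, and here the lowest summer fish was summer 1 and the highest winter fish winter 7. The means were 49.6 ± 12.8 CPM in summer and 16.6 ± 3.43 CPM in winter (SD, n = 7 each), which gave a log2 fold change of 1.58 ± 0.20 (SE; edgeR adjusted p = 0.00438). It was 1.50 with the close libraries averaged (adjusted p = 0.147).

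OAV3G000021012 was the next largest riser. It had 179, 146, 102, 156, 101, 112 and 108 CPM in summer fish 1 to 7, against 69.2, 16.8, 66.4, 71.2, 72.3, 33.6 and 25.2 CPM in winter fish 1 to 7. The 4 close libraries held the lowest summer values, between 101 and 112 CPM, and the winter fish split into 4 at 66.4 to 72.3 CPM and winter 2, 6 and 7 at 33.6 or less. Its log2 fold change was 1.35 ± 0.30 (SE, adjusted p in edgeR 0.0173). It was 1.52 with the close libraries averaged (adjusted p = 0.147) and 1.29 with total-count scaling (adjusted p = 0.0824).

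The largest decrease was in OAV3G000006676. It had 10.2, 14.3, 11.0, 9.89, 10.2, 12.2 and 13.2 CPM in summer fish 1 to 7, against 20.9, 38.5, 38.3, 20.9, 15.3, 89.5 and 259.6 CPM in winter fish 1 to 7. Summer fish were nearly uniform, while winter fish differed from each other by over an order of magnitude, with winter 7 far above the rest. The log2 fold change was -2.57 ± 0.53 (SE, adjusted p in edgeR 0.0129). Without winter 7 it was -1.66, and with the close libraries averaged -2.58 (adjusted p = 0.179).

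OAV3G000017722 had 19.0, 14.2, 20.7, 8.28, 19.8, 18.1 and 17.8 CPM in summer fish 1 to 7, against 27.2, 110, 30.7, 39.4, 34.1, 69.9 and 92.3 CPM in winter fish 1 to 7. Winter 2, 6 and 7 held the highest values and summer 4 the lowest. Its log2 fold change was -1.77 ± 0.32 (SE, adjusted p in edgeR 0.00842), and -1.89 with the close libraries averaged (adjusted p = 0.147). As the rule required, all 4 named genes passed in each fit without 1 library, with edgeR adjusted p up to 0.0464 in OAV3G000021012. As a random block, OAV3G000006676 and OAV3G000017722 had adjusted p of 0.102 and 0.0568 in limma voom, and the 2 risers passed.

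**Figure D5:**
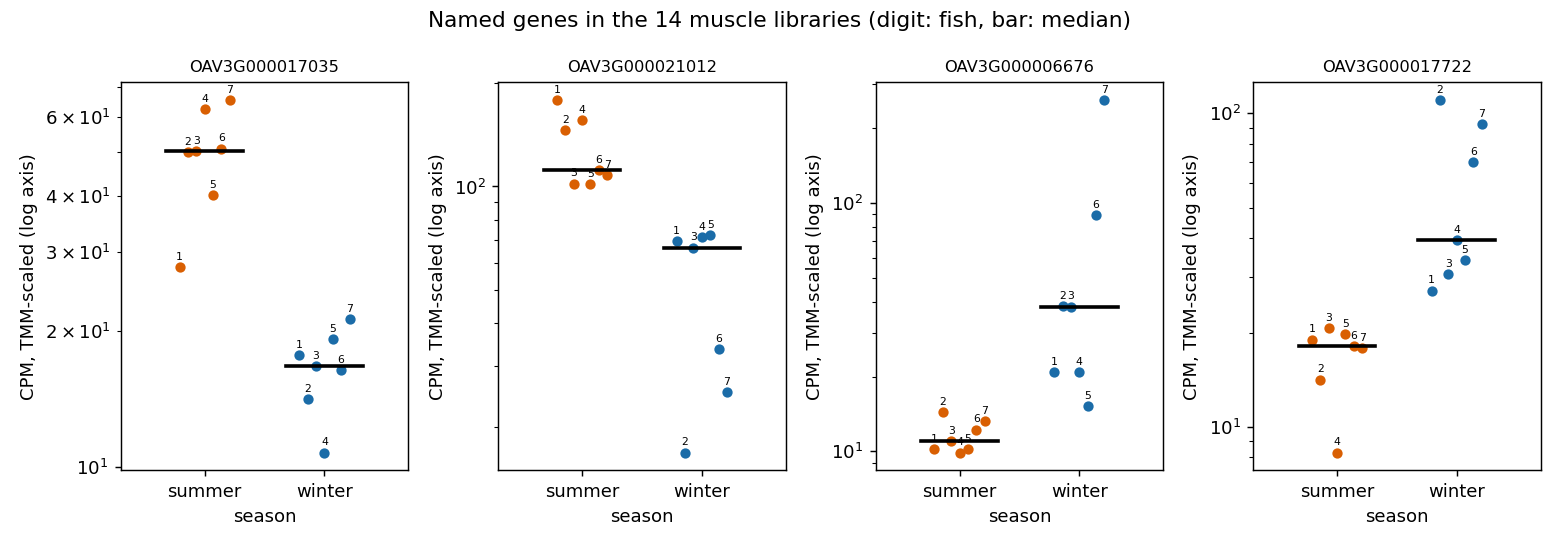
TMM-scaled CPM (vertical, log axis) of the 4 named genes in each muscle library, summer left of winter, with the fish number at each point and a bar at the median of 7 fish. By the rule that chose the genes, no summer fish overlaps a winter fish in any of the 4 panels. Winter 7 stands far above the rest in OAV3G000006676.

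Genes of other tissues were examined next. Genes at least 4-fold higher on average in gills than in muscle and skin numbered 892, of which 445 passed the filter in muscle. Of these, 2 rose and 65 fell in summer, or 15.1%, against 6.4% of all genes tested, and their median log2 fold change was -0.39, against -0.01 over all genes. These fallers were scarce in muscle, at a median of 1.46 CPM. Among the 65, 63 had their highest level in winter 2, against 332 of all 694 fallers. Without that library 26 of the 65 passed (40.0%), close to the 41.4% of all fallers, and 1 of them passed with the close libraries as a random block, against 46 of all fallers. Their median log2 fold change was -2.77 with all libraries and -2.17 without winter 2. Gill-enriched genes as a whole took 0.0621 to 0.144% of the counts of summer muscle, with the highest share in summer 4, and 0.0481 to 0.225% of winter muscle, with the highest in winter 2. The mean share was 0.0794% ± 0.0299 in summer and 0.115% ± 0.0640 in winter (SD, n = 7 each; exact permutation p = 0.217, adjusted p = 0.719 over 6 measures). Whether gill-type RNA in single muscle samples had a part in these differences was not tested, and in bulk tissue fewer cells of a type cannot be told apart from less RNA per cell.

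Of 938 muscle-enriched genes tested, 38 rose (4.05%, against 2.36% of all genes) and 21 fell (2.24%, against 4.04%), and their median log2 fold change was 0.22. The 21 fallers were abundant, at a median of 201 CPM, and the 38 risers had a median of 12.6 CPM. Of the 38 risers, 8 passed in all 14 fits without 1 library, against 133 of all 406 risers. With the close libraries as a random block 1 of the 38 passed, against 18 of the 406. Of the 21 fallers, 6 passed in all 14 fits and 3 as a random block, against 242 and 46 of all 694 fallers. Muscle-enriched genes took 62.6% ± 3.17 of the counts in summer and 65.0% ± 4.19 in winter (SD, n = 7 each; exact permutation p = 0.262). Skin-enriched genes numbered 130 among those tested, with 8 risers (6.15%, against 2.36% of all genes) and 3 fallers (2.31%, against 4.04%). In all 14 fits without 1 library, 1 of these risers and 1 of these fallers passed. The share of counts in skin-enriched genes was 0.0493% ± 0.0223 in summer and 0.0444% ± 0.0134 in winter (exact permutation p = 0.654). The other 15668 genes held 358 risers (2.28%, against 2.36% of all genes) and 605 fallers (3.86%, against 4.04%).

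No difference in the breadth of the muscle transcriptome was detected beyond the spread between fish. The 10 most abundant genes of each library took 41.5% ± 3.82 of its counts in summer and 42.9% ± 4.19 in winter (SD, n = 7 each; exact permutation p = 0.503). The top 100 took 66.9% ± 2.94 in summer and 68.7% ± 4.24 in winter (exact permutation p = 0.366). At a common depth of 6074371 counts, 17140 ± 1107 genes would be seen in summer and 17390 ± 672 in winter (exact permutation p = 0.719). This depth is common in counts only. The draws took single counts, while most small counts were even, as when both mates are counted. Summer 4 was not drawn down, so the other libraries may hold more read pairs at this depth. The part of this in its lower number of genes was not tested. Summer 4 stood apart with 14648 genes, and without it the summer mean was higher than the winter mean by 165 genes. Adjusted over the 6 measures, p was 0.719 for each.

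Most of the largest increases among called genes peaked in 1 fish. Of 22 called genes that rose at least 4-fold, 19 had their highest level in summer 4, against 197 of all 406 risers. In 16 of the 22, summer 4 held most of the summed summer CPM. Without summer 4 the median log2 fold change of the 22 genes was 2.08, against 4.15 with it, and 11 passed, against 358 of all 406 risers. Of 121 called genes that fell at least 4-fold, 104 had their highest level in winter 2, against 332 of all 694 fallers. In 29 of the 121 a single library held most of the summed winter CPM, and in 22 of these it was winter 2. Among those 121 genes, 53 were gill-enriched and 54 averaged under 1 CPM. Without winter 2 their median log2 fold change was -2.18, against -2.74 with it. Of the 121 genes 54 (44.6%) passed without winter 2, close to the 287 of all 694 fallers (41.4%) that did. The median log2 difference of the 406 risers from the winter median was 0.66 in summer 2 and 0.78 in summer 1, between 0.96 and 1.07 in the 4 close libraries, and 1.22 in summer 4. The 694 fallers stood at -0.82 in summer 2, -0.85 in summer 1, -0.93 to -0.97 in the close libraries and -1.14 in summer 4. The winter fish differed among themselves: the fallers had medians of -0.35, -0.27 and -0.26 in winter 1, 4 and 5, of 0.00 in winter 3 and 0.03 in winter 7, and of 0.19 and 0.36 in winter 6 and winter 2. The genes were chosen on these same libraries, so these medians describe the calls and do not test them. In summer 4 all genes together had a median of -0.28 on this scale, and at most 0.0141 from 0 in the other summer libraries.

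Gills and skin of the same fish gave a separate measurement of the genes called in muscle, from other libraries but the same catches. In gills no gene passed in edgeR (0 of 18409, with 2669 at an unadjusted p under 0.05). There, 333 of 389 measured muscle risers (85.6%) were nevertheless higher in summer, against 50.4% of all genes tested, with a median log2 fold change of 0.18 against 0.00. Of 689 muscle fallers, 209 (30.3%) were higher in summer, with a median of -0.08. Without the gill libraries where tag and title disagree on season the shares were 86.6% and 29.8%. In skin, where no gene passed either (0 of 18260, with 2064 under 0.05), 83.8% of 401 risers and 29.3% of 693 fallers were higher in summer, against 50.1% of all genes, with medians of 0.61 and -0.21. Skin summer 3 and 4 stand apart, with median correlations of 0.892 and 0.873 with the other skin libraries, against 0.956 to 0.981 for the rest. Without them 58.9% of risers and 32.4% of fallers were higher in summer, against 44.6% of all genes, and the medians were 0.04 and -0.07 beside -0.03 for all genes. The median difference in gills was thus well below the 0.97 of the risers in muscle, where the genes were chosen. Both exclusions were chosen after seeing the data. These shares are descriptions, and the seasons remain those of the same 14 fish. The skin libraries also carried the most abundant genes of muscle. Scaled over all tissues, those 10 genes averaged 5012 to 23571 CPM in skin. They averaged 49.4 to 678 CPM in gills and 42511 to 166257 CPM in muscle. Whether muscle RNA in the skin samples had a part in the skin shares was not tested.

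Whether the seasonal difference of the named genes was itself different in muscle was tested by an interaction term over all 42 libraries. These genes were chosen for their difference in the same muscle libraries, which favours a pass, so the p-values below describe the genes and are not independent evidence. The fit has no term for the fish that the tissues share. Levels are scaled over all tissues. OAV3G000017035 averaged 99.7 ± 24.0 CPM in summer muscle and 34.6 ± 6.90 in winter muscle, against 1.52 ± 0.566 in summer gills and 1.98 ± 1.07 in winter gills (SD, n = 7 each). Its log2 difference, muscle minus gills, was 1.91 ± 0.45 (SE, adjusted p in edgeR 0.0146). Against skin it was 1.09 ± 0.46 and missed the threshold (adjusted p = 0.164). OAV3G000021012 passed against neither tissue (0.76 against gills, adjusted p = 0.536; 0.25 against skin, adjusted p = 0.848). In gills its means were 43.9 ± 13.8 CPM in summer and 30.4 ± 7.84 CPM in winter. In skin they were 98.7 ± 124 CPM in summer and 47.7 ± 13.9 CPM in winter, so the summer SD exceeded its mean. OAV3G000006676 passed against both, at -2.42 ± 0.54 for gills (adjusted p = 0.0109) and -2.44 ± 0.54 for skin (adjusted p = 0.00716). Its level was 35.0 ± 4.36 CPM in summer gills and 39.2 ± 3.11 in winter gills, beside 23.5 ± 3.84 in summer muscle and 141 ± 176 in winter muscle. OAV3G000017722 passed against gills (-1.85 ± 0.41, adjusted p = 0.0109) and not against skin (-1.28 ± 0.41, adjusted p = 0.0610). With the close muscle libraries averaged, the differences from gills of OAV3G000017035 and OAV3G000006676 missed the threshold (adjusted p = 0.0708 and 0.0557). Without winter 7 the differences of OAV3G000006676 were -1.55 from gills and -1.57 from skin (adjusted p = 0.0313 and 0.0211). Each fish was also taken as a block over its 3 tissues, an alternative chosen after seeing the data like the last. There edgeR gave 1.82 from gills for OAV3G000017035 (adjusted p = 0.0215) and -1.82 from gills for OAV3G000017722 (adjusted p = 0.0215). For OAV3G000006676 it gave -1.91 from gills and -1.83 from skin (adjusted p = 0.0454 and 0.0427). The remaining differences missed the threshold in this edgeR fit. They were 0.99 from skin for OAV3G000017035 and -1.19 from skin for OAV3G000017722 (adjusted p = 0.209 and 0.111). For OAV3G000021012 they were 0.90 from gills and 0.89 from skin (adjusted p = 0.371 and 0.354). Of the 44 fallers that met the rule, 23 passed this interaction against gills and 15 against skin, while 1 of the 12 risers passed against each, beside 2.31% and 4.83% of all 19258 genes; these genes were chosen for their muscle difference, so nothing is read from the counts. In edgeR the gene at rank 3 had an interaction of -1.63 ± 0.45 with skin (adjusted p = 0.0278) and -1.55 ± 0.45 with gills (adjusted p = 0.0543). In skin this gene averaged 23621 CPM in summer and 19028 CPM in winter, and the part of muscle RNA in those samples was not tested. The gene at rank 6 passed against neither tissue in edgeR. Its interaction was -1.24 ± 0.66 with gills (SE, adjusted p = 0.369) and -1.51 ± 0.66 with skin (adjusted p = 0.182).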

How the data were processed

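Raw counts of 21024 genes in 42 libraries were deposited by the authors as a single table. The 14 muscle libraries were compared, and gills and skin were used to class genes and for the interaction test. Tools listed in the submitters' processing notes, without role or order, are HISAT2 2.2.1, SAMtools 1.10, Cufflinks, Trim Galore 0.6.6 and FastQC. Not given in the sources used here are build, annotation and counting program. Of muscle counts from 1 to 10, 75.7% were even, as when both mates are counted, so sampling noise was taken with doubled variance. The libraries keep no strand: overlapping, antisense and near-identical genes are uncertain. P-values measure the spread between these libraries.

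Summer minus winter was tested with edgeR 4.0.16 (robust quasi-likelihood, two-sided, TMM, filterByExpr, Benjamini-Hochberg over all genes tested, threshold 0.05) in R 4.3.3; alternatives used DESeq2 1.42.0 and limma 3.58.1. For log2 CPM the prior count was 2. Differences in shares were tested by two-sided exact permutation over all splits. These were 3432 with all 14 libraries and fewer where libraries were averaged or left out, which raises the smallest p possible. The test of the 10 most abundant genes was added after seeing the data. Tissue-enriched genes had a mean log2 CPM at least 2 above both other tissues, from these same libraries. The fit was tested before use on simulated counts drawn independently for each library. That test does not cover the closeness of some summer libraries. Season came from the titles.

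Named genes are the 2 largest increases and 2 largest decreases under the rule given with them; the 10 most abundant genes are given by rank. Members, rule and lists were chosen with earlier results of these data known. No names come with the identifiers, so no more than 2 per direction are printed, and marker lists could not be used.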

Additional observations from a re-analysis of the deposited data

Results flagged for a closer look

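In 4 of 42 groups of 7 values 1 fish lay far from the others. The limit used gives about 1 in 20 for independent, normally distributed values. The groups share libraries, so no excess is read from this count. Winter 7 held 259.6 CPM of OAV3G000006676, and the nearest winter value was 89.5 CPM. Summer 2 held 37018 CPM of the gene at rank 9, with 21884 CPM next. Summer 4 would show 14648 genes at the common depth, against at least 17376 in the other summer fish. In summer 4 the gill-enriched share was 0.144%, and in the next summer library 0.0872%. The part of that library's depth in these values was not tested.

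For genes chosen on their muscle difference in these same libraries, which favours a pass, the interaction of season and tissue passed in edgeR for OAV3G000017035 (log2 difference 1.91 against gills, adjusted p = 0.0146), OAV3G000006676 (-2.42 against gills, adjusted p = 0.0109, and -2.44 against skin, adjusted p = 0.00716) and OAV3G000017722 (-1.85 against gills, adjusted p = 0.0109).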

How the results depend on the processing

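The count of called genes, 1100 with all libraries, was 1122 with RLE scaling, 1098 without the filter on low counts and 1143 in limma voom. It was 2306 in DESeq2, 5112 in limma voom with quality weights, 2896 in 1 fit of all 42 libraries and 444 with total-count scaling (191 higher, 253 lower; chosen after seeing the data). It was 70 with the close libraries as a random block, and 0 in edgeR with them averaged, by mean count or with equal weight (2759 and 2789 genes at an unadjusted p under 0.05), averaged without summer 4, or left out. Without 1 library it ran from 430 to 1523. Fewer summer samples are part of how the averaged fits are built; other causes were not tested. Following the tag of winter 4 gave 1229 genes, of which 680 were among the 1100.

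The individual number used as a replicate block gave 722 genes (300 higher, 422 lower). Equal numbers in the 2 seasons were taken to name different fish, as the catches were of different years. Deviations of same-numbered fish correlated at -0.127 to 0.229, and 1 of 7 summer fish correlated best with its own number. These correlations cannot show whether the fish are the same.

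All 4 named genes kept their direction in all 29 other settings. Of these, 25 settings passed for OAV3G000017035 and 24 for each of the others. The 14 fits without 1 library are among them, and the naming rule required those to pass. All settings reuse the libraries on which the genes were chosen, so the tally describes the genes and does not test them. Differences that never passed changed sign as follows. Without summer 4 and with averaging they were 1.33 percentage points for the top 10 genes, 0.171 for the top 100 and 256 for the number of genes; the last ran from -395 to 165 with 1 library left out (165 without summer 4) and was 3.10 with the tag of winter 4. The difference in skin-enriched share ran from -0.000797 to 0.00905 with 1 library left out (-0.000797 without summer 2, -0.000249 without summer 4), and that of the gene at rank 4 was -0.22 with averaging. The interactions with gills of OAV3G000017035 (1.84) and OAV3G000006676 (-2.45) missed the threshold with averaging. With each fish as a block over its 3 tissues, 404 genes passed the interaction with gills and 713 that with skin, against 445 and 931 without the block. The lowest depth, 6074371 counts, was that of summer 4; its part in the results was not tested.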
